A study of Mus musculus with 42 samples.

Results

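HOXC13:C10.2 is a chimeric Hox transcription factor, the N-terminal part of HOXC13 joined to the homeodomain and C-terminus of HOXC10, together with a conserved stretch of HOXC10 that lies just before the homeodomain. Its genomic binding was measured by chromatin immunoprecipitation sequencing (ChIP-seq) and set against that of its parents, HOXC10 and HOXC13. Of the 87224 binding events of the chimera on chromosomes 1 to 19 and X, the 10000 with the highest estimated count of ChIP reads were taken. Each was classed by whether any event of the HOXC10 list (26859 events) or of the HOXC13 list (115819 events) lay within 100 bp. The classes held 4407 events with HOXC10 alone, 734 with HOXC13 alone, 4032 with both and 827 with neither.

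The series holds 42 samples. All lists used for the classes came from mouse embryonic stem cells of the Ainv15 background that were grown as embryoid bodies towards spinal motor neurons with 3 days of retinoic acid and the smoothened agonist SAG. Doxycycline (Dox) was added at day 2, and cells were collected after 24 h of Dox, at day 3. A HOXC10 list and a PBX list from iHoxc10 cells, compared further on, came from cells collected at day 4, after 4 days of retinoic acid and SAG and 48 h of Dox. Every line carried 1 induced Hox transgene at the HPRT locus, so the factors were expressed on top of any Hox genes that the cells expressed themselves. The HOXC13 coding sequence was the human one. Both chimera libraries came from a Flag-tagged line and a Flag antibody. The HOXC10 list pooled 3 libraries, of which the first came from a V5-tagged line with another antibody and the other two from a Flag-tagged line. The HOXC13 list pooled a Flag library and an HA library. Expression of motor neuron markers was not measured in these libraries, so the labelled cell type was not checked here.

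Depth differed between the lists. The chimera libraries held 25.0 and 23.3 M aligned reads, with a fraction of 0.320 and 0.392 assigned to binding events by the authors' caller. The HOXC10 libraries held 5.04, 18.2 and 21.8 M reads at fractions of 0.017, 0.041 and 0.161, all below the chimera. The HOXC13 libraries held 26.5 and 31.0 M reads at 0.375 and 0.327. The HOXC10 list is therefore the shorter and the less deeply enriched one, and what that does to the HOXC13-alone and neither classes was not tested. Each list pools its libraries, so no spread between differentiations can be given for any site or share. The intervals below are 95% intervals for counting error over sites, a difference is called where its interval leaves out 0, and no p-value is given.

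Hox proteins are homeodomain factors that give cells along the body axis their position. The homeodomain contacts DNA at short AT-rich cores, of which TAAT is read by many homeodomain proteins, while posterior Hox proteins such as HOXC10 and HOXC13 read cores that begin with TTTA. TALE homeodomain cofactors of the PBX and MEIS families bind DNA beside Hox proteins, and TGATTTAT joins a TGAT site for PBX to the posterior Hox core. HOXC10 is the factor of lumbar motor neurons, whereas HOXC13 is expressed at the tail end of the axis. The chimera separates the DNA-binding end of HOXC10 from its N-terminal part, so that their share in choosing sites can be compared.

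The sequences that follow are 101 bp of the mouse genome (build GRCm38, the NCBI name of mm10, plus strand) centred on the strongest chimera event of each class that holds the motif named. They show what the search counted. Capitals mark every copy of that motif, and a copy on the minus strand is shown as its reverse complement, so that a capital ATAAA is a TTTAT of that strand.
HOXC10 alone, TTTAT, chr14:97045984-97046084: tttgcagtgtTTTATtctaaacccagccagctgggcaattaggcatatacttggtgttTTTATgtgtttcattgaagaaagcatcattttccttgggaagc
HOXC13 alone, TTTAC, chr17:93676555-93676655: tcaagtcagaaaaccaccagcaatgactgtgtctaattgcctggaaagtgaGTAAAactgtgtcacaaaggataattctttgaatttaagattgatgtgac
Both, TTTAT, chr15:103305329-103305429: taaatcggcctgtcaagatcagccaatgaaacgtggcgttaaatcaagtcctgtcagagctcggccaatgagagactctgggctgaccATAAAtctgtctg
Both, TGATTTAT, chr3:107545918-107546018: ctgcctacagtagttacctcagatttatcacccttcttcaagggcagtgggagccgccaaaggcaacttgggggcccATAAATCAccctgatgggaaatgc
Neither, TTTAT, chr6:103547373-103547473: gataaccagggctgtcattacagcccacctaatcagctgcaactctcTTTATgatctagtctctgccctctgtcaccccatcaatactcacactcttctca

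The HOXC10-alone site on chromosome 14 was the event of rank 5 of the chimera, with 6902.1 estimated ChIP reads, and had a HOXC10 event at 12 bp with 1157 reads. The nearest HOXC13 event lay 8306 bp away. It holds 2 copies of TTTAT, lies in an intron of a gene that is not protein-coding, and is 527 kb from the nearest protein-coding start, that of Klhl1, which encodes a Kelch-like protein. The HOXC13-alone site on chromosome 17 had 1871.8 reads (rank 448) and a HOXC13 event at 45 bp. It is intergenic, 477 kb from Adcyap1, the gene of the neuropeptide PACAP. A HOXC10 event lay at 127 bp, just beyond the limit.

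The site on chromosome 15 was the strongest event of the whole chimera list, with 24512.3 ChIP reads against 3.0 control reads. HOXC10 had 715.8 reads at 2 bp and HOXC13 had 1470.3 reads at 4 bp from it. Its TTTAT copy starts 38 bp from the event. It lies in an intron of a gene that is not protein-coding, 5.23 kb from the start of Gpr84, a G protein-coupled receptor gene, on the chromosome that also carries the HoxC cluster. The site on chromosome 3 (rank 12, 6175.2 reads) holds the joint PBX and Hox motif, with both parents at 12 bp, and lies 9.11 kb from Ubl4b. The neither site on chromosome 6 (rank 437, 1885.1 reads) lies in an intron, 36.2 kb from the nearest start of Chl1, a neural cell adhesion gene. A HOXC13 event lay 134 bp from it.

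HOXC10 events were found beside most of the strong chimera events. HOXC10 alone accounted for 44.1% of the top events (95% interval 43.1 to 45.0%), both parents for 40.3% (39.4 to 41.3%), neither for 8.27% (7.75 to 8.83%) and HOXC13 alone for 7.34% (6.85 to 7.87%). Any HOXC10 event thus lay at 84.4% (83.7 to 85.1%) and any HOXC13 event at 47.7% (46.7 to 48.6%), although the HOXC13 list is the longer one. With the HOXC13 list cut to the length of the HOXC10 list, HOXC10 alone held 63.1%, both 21.3%, neither 11.3% and HOXC13 alone 4.35%. With every top event moved by 10 kb the shares were 0.69% and 1.43%. Over the whole chimera list, HOXC10 alone held 20.8% of events, both held 10.5%, HOXC13 alone held 17.9% and neither held 50.8%. The top events thus held more HOXC10-alone and shared sites, and fewer HOXC13-alone and neither sites, than the list they come from.

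The mix of classes changed with the strength of the chimera event. Among the 2000 strongest events 58.4% had both parents, 37.3% HOXC10 alone, 2.3% HOXC13 alone and 2.1% neither. Among ranks 8001 to 10000 the shares were 28.2%, 47.8%, 10.3% and 13.8%. The shared class fell in each step of 2000 ranks, and HOXC13 alone and neither rose in each.

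**Figure D1:**
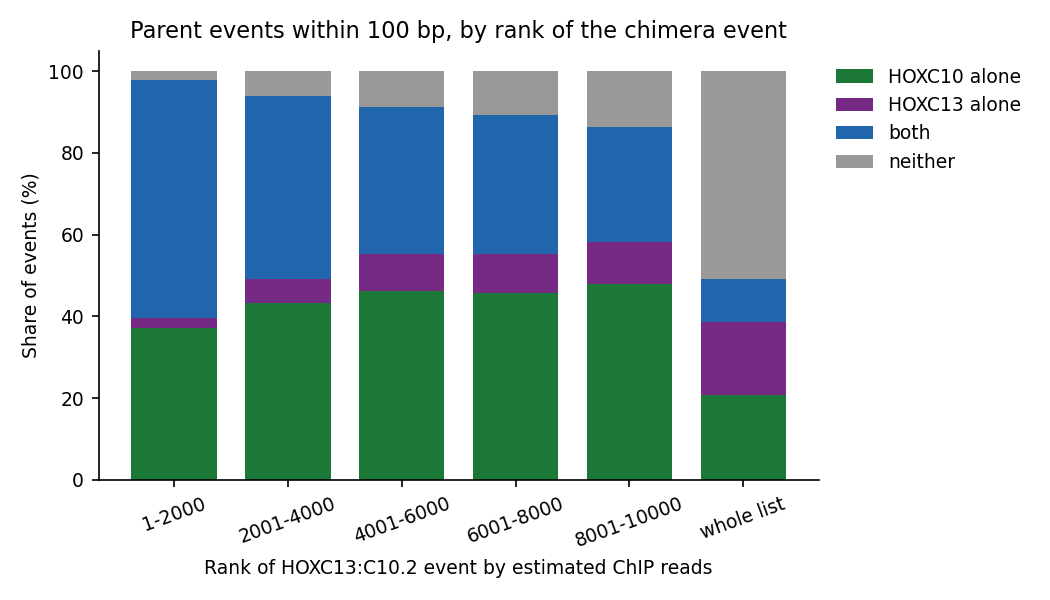
Share (%) of chimera events in each class, in steps of 2000 ranks by estimated ChIP reads and for the whole list of 87224 events. The shared class goes from 58.4% to 28.2% over the top 10000, and neither reaches 50.8% of the whole list.

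The chimera's own read counts overlapped widely between classes. The median was 665.9 ChIP reads at shared sites, 546.7 at HOXC10-alone sites, 480.7 at HOXC13-alone sites and 460.3 at neither sites. The quartiles ran from 471.3 to 1052, from 426.7 to 799.5, from 408.1 to 626.1 and from 399.4 to 591.6 reads in the same order. The strongest HOXC13-alone and neither sites had 1871.8 and 1885.1 reads, against 24512.3 for shared and 6902.1 for HOXC10-alone sites. The cut at rank 10000 fell between 351.1 and 351.0 reads. Median control reads were 3.7 to 4.4 in every class. One HOXC10-alone site, 0.038 kb from the start of Hdx on the X chromosome, had 148.5 control reads beside 6217.9 ChIP reads, against a highest control count of 19.3 to 24.7 in the other classes.

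Where a parent event was present it usually lay close to the chimera's. The median distance was 13 bp for HOXC10 and 13 bp for HOXC13, and 267 and 131 top events had a parent event at the very same position. The limit of 100 bp still divides some neighbours. For HOXC10, 109 top events had their nearest event at 91 to 100 bp and 86 at 101 to 110 bp, and for HOXC13 the counts were 81 and 73. Of the neither sites 309 (37.4%) had a parent event at 101 to 200 bp, which was nearest in the HOXC10 list for 264 of them. The distance was over 1000 and up to 10000 bp for 253 neither sites, and over 10000 bp for another 131. Of the HOXC13-alone sites 118 (16.1%) had a HOXC10 event at 101 to 200 bp. All 3 of the strongest neither sites belonged to this border group, with a parent event at 105, 114 and 134 bp.

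The parents' own strength was read within each list. At HOXC10-alone sites the HOXC10 event had a median of 163.4 reads, and 74.9% (73.6 to 76.1%) were among the 10000 strongest HOXC10 events. At shared sites the values were 176.2 reads and 75.5% (74.2 to 76.8%). Both medians exceeded the 85.5 reads of the whole HOXC10 list. The HOXC13 event had a median of 209.2 reads at HOXC13-alone sites and 166.4 at shared sites, against 80.8 for its list, and 33.1% (29.8 to 36.6%) and 27.8% (26.4 to 29.2%) were among the 10000 strongest HOXC13 events. Those 10000 are a far smaller part of the 115819 HOXC13 events than of the 26859 HOXC10 events. The shares of HOXC10 and HOXC13 therefore cannot be set side by side as a measure of strength. Spearman's rho between chimera and parent reads was 0.36 over 4407 HOXC10-alone sites and 0.43 over 4032 shared sites for HOXC10. For HOXC13 it was 0.07 over 734 HOXC13-alone sites and 0.19 over the shared sites. These values describe the lists, and the sites of a list share its libraries.

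Read from the parents' side, 99.0% (98.8 to 99.2%) of the 10000 strongest HOXC10 events had a chimera event of any strength within 100 bp, and 56.0% (55.0 to 57.0%) had one of the top chimera events. For the 10000 strongest HOXC13 events the shares were 44.1% (43.1 to 45.1%) and 12.7% (12.0 to 13.3%). Most strong HOXC13 events thus had no chimera event within that distance.

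The classes differed in the sequence under the event. TTTAT was found within 50 bp of 79.2% (76.1 to 81.9%) of HOXC13-alone sites, 70.3% (68.9 to 71.7%) of shared sites, 55.0% (51.6 to 58.4%) of neither sites and 52.1% (50.6 to 53.5%) of HOXC10-alone sites. Over all chimera events the share was 59.8%. HOXC10-alone sites held it 27.1 points less often than HOXC13-alone sites (interval of the difference -30.3 to -23.7 points) and 18.2 points less often than shared sites (-20.3 to -16.2). Windows 1 kb to each side held it at 32.3 to 35.0% in the 4 classes, so all classes lay above their flanks. Neither sites and HOXC10-alone sites were not told apart, with a difference of 2.96 points (-0.75 to 6.63), although the interval left out 0 under other list lengths, a 200 bp distance for shared events and a 25 bp motif window, with differences from 4.08 to 7.11 points.

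TTTAC followed the same order of the parents at a lower level. It stood at 35.8% (32.4 to 39.4%) of HOXC13-alone, 32.2% (30.7 to 33.6%) of shared, 22.9% (21.7 to 24.2%) of HOXC10-alone and 20.8% (18.2 to 23.7%) of neither sites, beside 26.3% of all chimera events and 18.1 to 19.6% of flanks. HOXC10-alone sites were 12.9 points below HOXC13-alone sites (-16.7 to -9.30). At neither sites the interval reached into the range of the flanks. Either TTTAT or TTTAC was present at 88.1% of HOXC13-alone, 81.3% of shared, 66.5% of neither and 64.0% of HOXC10-alone sites.

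TAAT did not separate the parents' classes. It was found at 73.8% of HOXC13-alone, 73.2% of shared, 72.5% of HOXC10-alone and 68.3% of neither sites, against 71.9% of all chimera events and 49.5 to 51.3% of flanks. HOXC10-alone and HOXC13-alone sites differed by -1.32 points (-4.65 to 2.22). TGATTTAT, which contains TTTAT, was found at 7.65%, 5.86%, 7.79% and 6.65% of HOXC10-alone, HOXC13-alone, shared and neither sites, against 6.92% of all chimera events and 0.48 to 0.82% of flanks. No pair of classes differed in it beyond the interval, and HOXC10-alone and HOXC13-alone sites differed by 1.79 points (-0.29 to 3.48). Its interval left out 0 over the top 5000 or 20000 events, with the HOXC13 list cut to the length of the HOXC10 list and with a 100 bp motif window, where the difference ran from 1.91 to 4.08 points, and held 0 under the other alternatives.

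**Figure D2:**
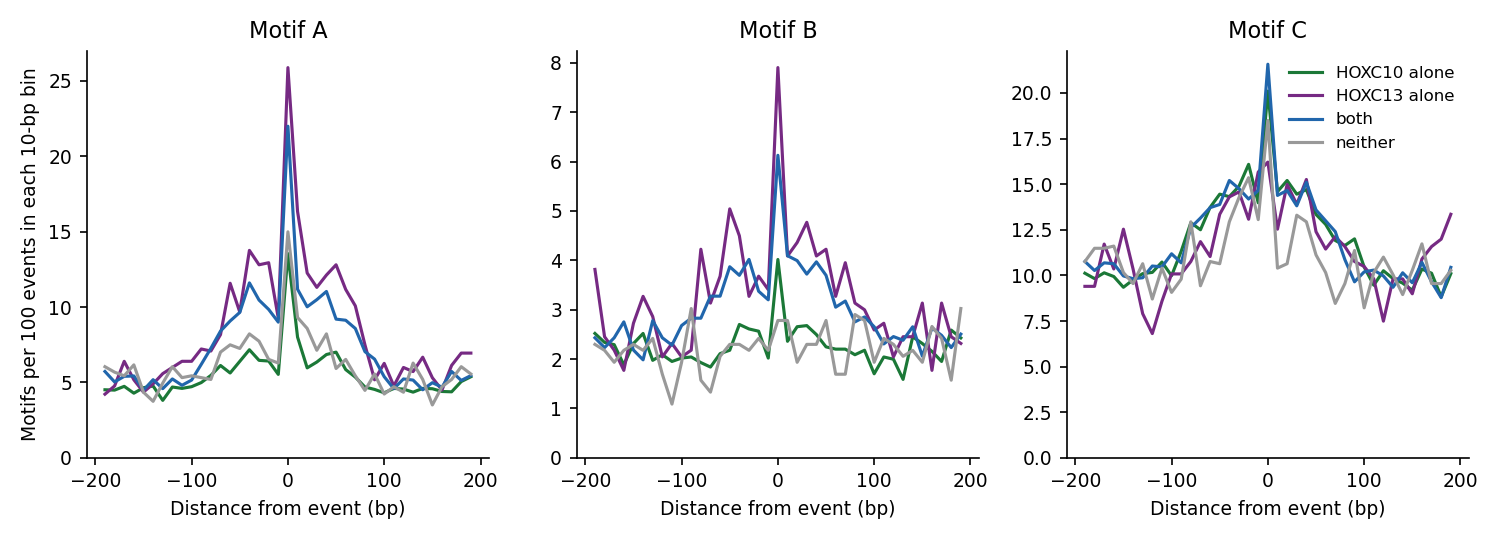
Motif copies per 100 events in 10-bp bins, by distance in bp of the motif's middle from the chimera event, for TTTAT (motif A), TTTAC (motif B) and TAAT (motif C). In the central bin TTTAT reaches 25.9 copies per 100 HOXC13-alone events, 22.0 at shared, 15.0 at neither and 13.5 at HOXC10-alone events.

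The parents' own strongest events gave the scale for these shares. Of the 10000 strongest HOXC13 events 80.9% held TTTAT and 49.7% held TTTAC, and of the 10000 strongest HOXC10 events 55.1% and 25.2% did. TAAT was at 69.3% and 73.7%, and TGATTTAT at 2.38% and 6.97%. The chimera's HOXC13-alone sites, at 79.2% for TTTAT, lay near the 10000 strongest HOXC13 events for that motif. At 35.8% for TTTAC they lay between the strongest events of the parents. Of the HOXC13 events at these sites, 33.1% were among those 10000. Median GC content of the 101-bp windows was 40.6% at HOXC13-alone, 41.6% at shared and 42.6% at HOXC10-alone and neither sites. This AT content moves with the motif shares, and its part in them was not tested. The event lay in a repeat masked in the reference at 9.26% of HOXC13-alone sites, against 6.08% of HOXC10-alone sites, a difference of -3.18 points (-5.59 to -1.15). Over all chimera events the share was 10.09%, above both.

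MEIS binding separated the classes as well. MEIS events in iHoxc10 cells, which carry the HOXC10 transgene, lay within 100 bp of 43.4% (42.0 to 44.9%) of HOXC10-alone and 39.1% (37.6 to 40.6%) of shared sites. They lay at 20.1% (17.5 to 22.9%) of neither sites and 8.99% (7.13 to 11.3%) of HOXC13-alone sites. The share was 11.1% over all chimera events and 0.37% with the top events moved by 10 kb. HOXC10-alone sites exceeded HOXC13-alone sites by 34.4 points (31.7 to 36.8), and by 26.7 points (23.2 to 29.6) among the weaker 5000 of the top events, where chimera read counts differ less. That MEIS list comes from cells that express HOXC10, and MEIS was not measured in chimera or HOXC13 cells.

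MEIS lists from other lines also had more events at HOXC10-alone than at HOXC13-alone sites, but did not tell HOXC10-alone from shared sites. In iHoxc10 cells HOXC10-alone sites exceeded shared sites by 4.37 points (2.27 to 6.46), whereas the differences were -0.07 points (-2.04 to 1.90) in iHoxc6 and -0.21 points (-2.28 to 1.86) in iHoxc9 cells. In iHoxc6 cells MEIS events lay at 30.6% of HOXC10-alone, 30.7% of shared, 13.7% of neither and 7.90% of HOXC13-alone sites, and in iHoxc9 cells at 62.5%, 62.7%, 45.2% and 33.0%. Over all chimera events the shares were 7.78% and 20.5%, so HOXC13-alone sites lay close to the whole list in iHoxc6 cells and above it in iHoxc9 cells. HOXC10-alone sites exceeded HOXC13-alone sites by 22.7 points (20.2 to 24.9) and 29.6 points (25.8 to 33.2). Each MEIS list rests on 1 library of a V5-tagged line. The iHoxc6 list held 8154 events at a signal fraction of 0.077. The iHoxc9 list held 22703 at 0.238, and the iHoxc10 list held 12928 at 0.119. What list length and signal fraction do to the differences between lines was not tested. Within each class, sites with a MEIS event in iHoxc10 cells held TTTAT less often than sites without one. HOXC10-alone sites with MEIS held it at 47.3% and those without at 55.7%, which is -8.43 points (-11.4 to -5.46). HOXC13-alone sites gave 54.5% of 66 and 81.6% of 668, which is -27.0 points (-39.3 to -15.2). TGATTTAT went the other way in every class. At HOXC10-alone sites it stood at 9.61% with and 6.14% without MEIS, a difference of 3.48 points (1.88 to 5.13). At shared sites it stood at 10.5% and 6.02%, a difference of 4.52 points (2.77 to 6.35). The differences of 3.55 points at HOXC13-alone and 3.74 points at neither sites had intervals that held 0. PBX at day 4 of iHoxc10 cells gave 848 events in all, from 1 library with a signal fraction of 0.008, and lay at 12 (0.12%) of the top chimera events. The share was 0.045% over all chimera events and 0.01% with the top events moved by 10 kb.

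Other Hox factors were compared at the same sites. The second chimera of this design, HOXC13:C10.1, takes only the homeodomain and C-terminus from HOXC10 and so differs from HOXC13:C10.2 by the stretch before the homeodomain. It had an event at 99.6% of HOXC13-alone, 99.4% of shared, 95.7% of HOXC10-alone and 94.9% of neither sites, against 65.4% of all HOXC13:C10.2 events. HOXC10-alone sites were 3.90 points below HOXC13-alone sites (-4.60 to -2.94), a difference no longer called among the top 5000 events, at -1.27 points (-2.00 to 0.70). The chimera lists come from the same run of the authors' caller, which shares position information within a run, and the HOXC9 list from another. What that does to the shares was not tested. HOXC9, a factor of thoracic level, was at 97.6% of HOXC10-alone, 97.0% of HOXC13-alone, 99.5% of shared and 86.7% of neither sites, against 64.0% of all chimera events. Its shares at HOXC10-alone and HOXC13-alone sites differed by 0.59 points (-0.53 to 2.15), and by 5.15 points (3.17 to 7.45) where events within 50 bp counted as shared, the only alternative whose interval left out 0.

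The reverse chimeras, which join the N-terminal part of HOXC10 to the homeodomain and C-terminus of HOXC13, also had more events at HOXC13-alone than at HOXC10-alone sites. HOXC10:C13.2 events lay at 55.4% (51.8 to 59.0%) of HOXC13-alone and 23.7% (22.4 to 24.9%) of HOXC10-alone sites, which is -31.8 points (-35.5 to -27.9). They lay at 64.9% of shared and 16.1% of neither sites, against 17.5% of all chimera events. HOXC10:C13.1, which has the shorter HOXC13 part, was at 33.7% (30.3 to 37.1%) of HOXC13-alone and 24.7% (23.5 to 26.0%) of HOXC10-alone sites, 54.0% of shared and 12.5% of neither sites, against 14.5% of all chimera events. HOXC10-alone sites differed from HOXC13-alone sites by -8.92 points (-12.6 to -5.35).

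HOXC6 and HOXC8, the more anterior factors, and HOXD9 showed the opposite order. HOXC6 was at 57.7% of HOXC10-alone and 19.6% of HOXC13-alone sites, a difference of 38.0 points (34.7 to 41.1). HOXC8 was at 82.0% and 48.1%, 33.9 points apart (30.1 to 37.6), and HOXD9 at 90.8% and 45.9%, 44.9 points apart (41.1 to 48.5). HOXA9 was at 96.2% and 87.9%, a difference of 8.36 points (6.11 to 11.0). Over all chimera events the shares were 17.2% for HOXC6, 36.0% for HOXC8, 45.0% for HOXD9 and 56.5% for HOXA9. HOXC13-alone sites thus lay near the whole list for HOXC6 and HOXD9 and above it for HOXC8 and HOXA9. HOXC10 itself at day 4, in 4 separate libraries, was at 72.5% of HOXC10-alone, 78.0% of shared, 27.4% of HOXC13-alone and 28.5% of neither sites, against 19.5% of all chimera events. Its list held 22024 events.

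**Figure D3:**
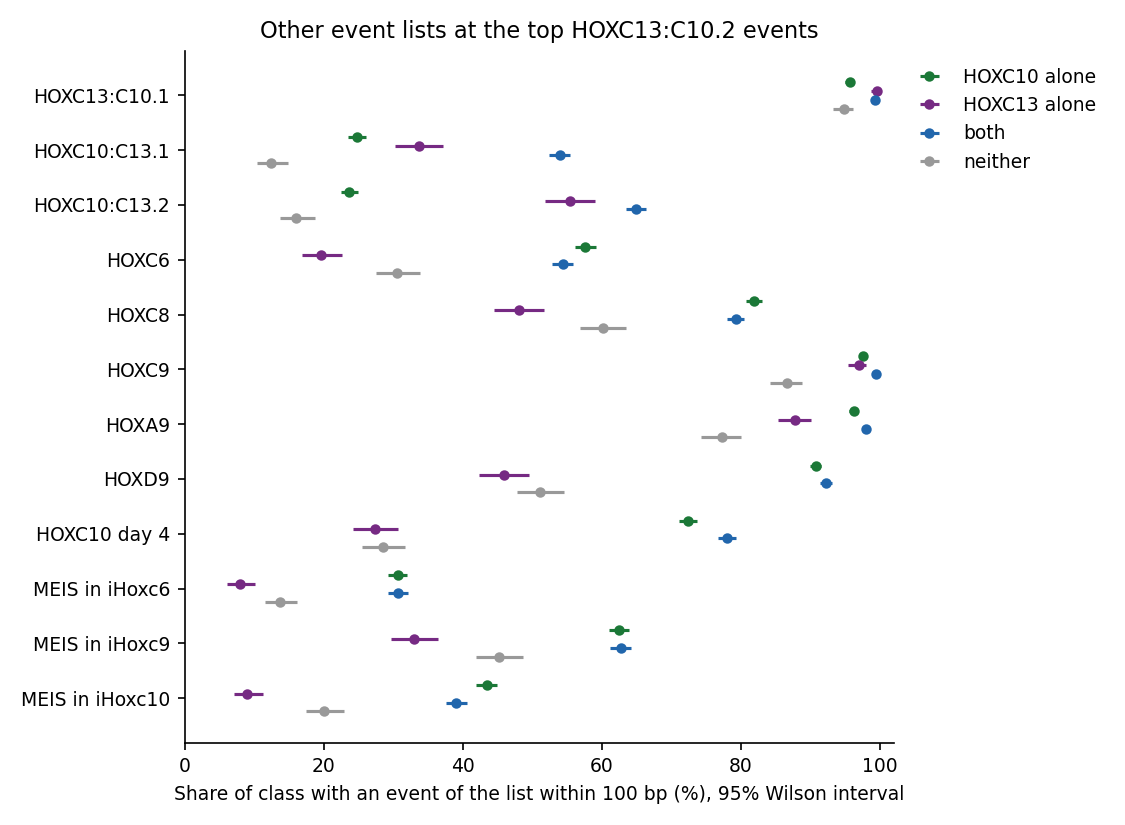
Share (%) of each class with an event of another list within 100 bp, as points with 95% Wilson intervals for counting error. HOXC10-alone (green) and shared (blue) points lie close together for HOXC6, HOXC8, HOXD9 and MEIS, with HOXC13-alone sites 22.7 to 44.9 points below HOXC10-alone sites.

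The classes were alike in where they lay relative to genes. Median distance to the nearest protein-coding start was 85.1 kb at HOXC10-alone, 82.7 kb at shared, 77.5 kb at neither and 74.6 kb at HOXC13-alone sites, against 77.2 kb over all chimera events. The quartiles overlapped, from 26.3 to 27.3 kb at the lower and from 199.3 to 222.0 kb at the upper end. Promoters, within 1 kb of a start, held 1.59% (1.26 to 2.00%) of HOXC10-alone, 0.95% (0.46 to 1.96%) of HOXC13-alone, 1.86% (1.49 to 2.33%) of shared and 1.45% (0.83 to 2.52%) of neither sites, beside 2.69% of all chimera events. HOXC10-alone and HOXC13-alone sites differed by 0.63 points (-0.42 to 1.28), and neither and HOXC10-alone sites by -0.14 points (-0.88 to 0.98).

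Introns of protein-coding genes held 44.2 to 45.8% of sites and intergenic sequence 44.7 to 46.6% in all 4 classes. Coding exons held 0.27 to 0.48% and untranslated exons 0.68 to 1.57%. No class left the autosomes or X unoccupied, and on X the counts were 49 HOXC10-alone, 41 shared, 12 neither and 10 HOXC13-alone sites.

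**Figure D4:**
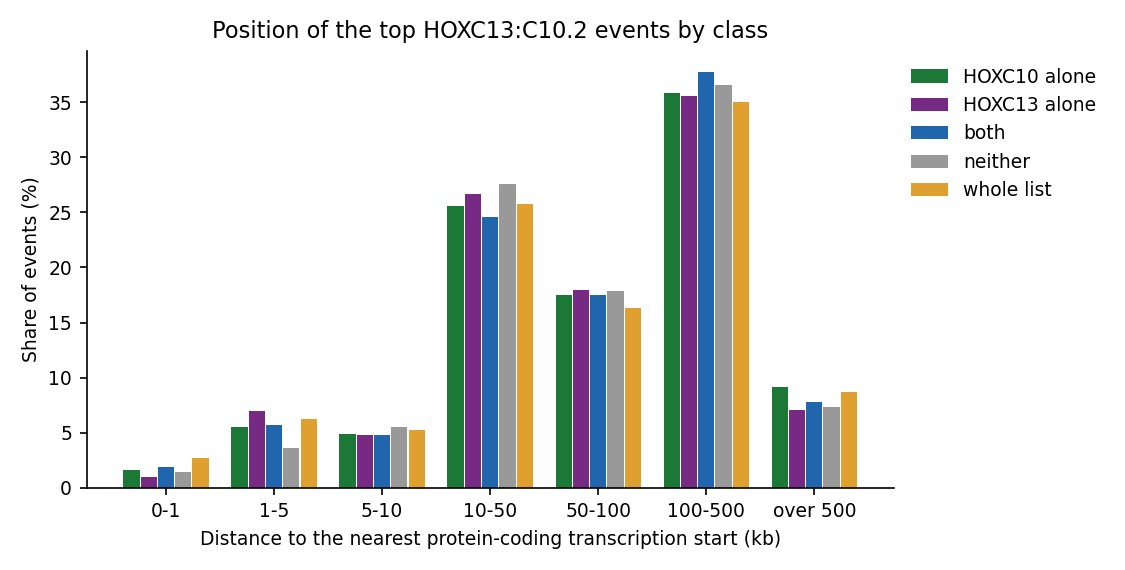
Share (%) of events by distance in kb to the nearest protein-coding transcription start, for each class and the whole chimera list. The bars of the 4 classes differ by a few points in every bin, and 24.6 to 27.6% of each class lies 10 to 50 kb away.

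The genes whose start was the nearest to most events carried several classes at once. No distance limit was set, so these events need not lie close to the gene. The strongest HOXC10-alone event was 106.4 kb from the nearest start of Auts2, 298.4 kb from Zfp608 and 395.8 kb from Robo2. For Cdh2 it was 574.2 kb and for Nr2f1 1055.9 kb away. What gene spacing does to these counts was not tested. By nearest start, HOXC10-alone sites fell to 2264 genes, led by Auts2, a gene of neuronal development, and Zfp608, a zinc-finger gene, with 20 each. Cdh2, which encodes N-cadherin, the nuclear receptor gene Nr2f1 and the Slit receptor gene Robo2 followed with 16 each. Shared sites fell to 2118 genes. Zfp608 had 25, Auts2 18, Robo2 18, the zinc-finger gene Zfp703 15 and Dach1, a transcriptional cofactor gene, 13. Over all 4 classes Zfp608 had 49 top events, Auts2 41 and Robo2 38.

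HOXC13-alone sites fell to 620 genes and neither sites to 704. Flrt2, a cell-surface guidance and adhesion gene, led both, with 6 HOXC13-alone and 4 neither sites among 18 top events, although the strongest HOXC13-alone event was 1246 kb from its start. Opcml, a neural adhesion gene, Cbln4, a synaptic organiser gene, the neurexin gene Nrxn3 and the glypican gene Gpc6 had 4 HOXC13-alone sites each. Cntnap2, a neurexin relative, the Slit receptor gene Robo1, the helicase gene Ascc3 and Nkx6-2, a homeodomain gene of ventral spinal progenitors, had 3 neither sites each. These counts are small.

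Gene groups were then counted by events within 50 kb of the gene body. Of 21755 protein-coding genes, 21.6% had any top event, 12.6% a HOXC10-alone, 10.9% a shared, 3.52% a neither and 3.07% a HOXC13-alone event. The lists below were put together with earlier results of these data known. Their genes differ from the average in length and spacing. Median lengths were 3.49 kb for Hox, 139.2 kb for Hox cofactor and 151.1 kb for axon guidance genes, against 17.4 kb for all genes. What gene length does to the counts was not tested.

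Hox genes had HOXC10-alone, shared and HOXC13-alone events at larger shares than any other list, but not neither events. Of 39 Hox genes 36 had a shared event within 50 kb, 33 a HOXC10-alone, 21 a HOXC13-alone and 5 a neither event, with a median of 12 top events against 0 over all genes. Neighbours in a cluster share events, so they are not separate counts. Hoxa2 and Hoxa3 had 27 each, of which 20 were shared, and Hoxa4 had 25. The 3 Hox genes without a top event were Hoxb13, Hoxc12 and Hoxc13, named after their values were seen.

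Within the HoxC cluster the chimera's strong events lay at the anterior genes Hoxc4 to Hoxc8. Hoxc10 had 6 top events within 50 kb, all shared, and Hoxc13 had 0. The strongest, at chr15:103014661 with 4984.9 reads (rank 25), lies in an intron, 0.846 kb from the nearest start of Hoxc5, and the event at chr15:103010055 with 2622.4 reads lies 0.482 kb from Hoxc6. Another of the 6, at chr15:103010096, lies within 100 bp of the event at chr15:103010055, so these counts are of events and not of separate sites. Hoxc9 had 11 top events, of which 8 were shared and 1 fell in each other class. Those 3 were the weakest, at 464.2 reads for HOXC13 alone, 387.0 for neither and 384.8 for HOXC10 alone.

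Motor neuron genes carried HOXC10-alone, shared and neither events more often than the average gene. Of 22 genes 17 had any top event, 14 a HOXC10-alone, 11 a shared, 8 a neither and 1 a HOXC13-alone event, the last a share (4.55%) close to that of all genes. Foxp1, which encodes the Hox accessory factor of limb-level motor neurons, had 21 top events, of which 11 were shared, 8 HOXC10 alone, 1 HOXC13 alone and 1 neither. All 21 lie in introns, and the strongest, at chr6:99348082, had 2192.1 reads and is shared. Several of the 21 lie within 100 bp of another, such as chr6:99348160 beside the strongest, so they are not all separate sites. Aldh1a2, the retinoic acid synthesis gene of limb-level motor columns, had 5 shared, 2 HOXC10-alone and 1 neither event, led by a shared event at chr9:71241739 with 2561.6 reads, 25.95 kb inside the gene. A shared event at chr9:71241687 and a HOXC10-alone event at chr9:71241779 lie within 100 bp of that event, so they are not separate sites. For the events at chr9:71175715 and chr9:71167663 the nearest start was that of Aqp9. Olig2, the motor neuron progenitor factor, had 7 HOXC10-alone and 1 neither event, and Mecom had 4 HOXC10-alone, 4 shared and 2 neither events.

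Hox cofactor genes, like the Hox genes, had more members with a shared than with a HOXC10-alone event. Of 9 genes 7 had a shared and 5 a HOXC10-alone event, and 2 had a HOXC13-alone event. Meis2 had 12 top events, all of them shared, and Pbx3 had 7 shared and 3 HOXC10-alone events. Meis1 and Pknox2 had 11 each. In the retinoic acid group 7 of 16 genes had a HOXC10-alone event, 2 a shared, 2 a neither and 0 a HOXC13-alone event. For so few genes the shared (12.5%) and HOXC13-alone counts lie near the shares of all genes (10.9% and 3.07%). The receptor gene Rarb had 5 shared, 3 HOXC10-alone and 2 neither events, Crabp1, a binding protein gene, had 5 HOXC10-alone events, and Cyp26a1 and Aldh1a1 had 1 event each.

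Axon guidance genes had any top event at 30 of 42, with 25 for HOXC10 alone, 20 shared, 8 neither and 7 HOXC13 alone. Robo2 had 10 HOXC10-alone and 10 shared events among 23, Robo1 had 7 HOXC10-alone and 3 neither events among 11, Slit3 had 6 HOXC10-alone and 3 shared among 10, and Dcc had 7 HOXC10-alone and 3 shared events. Caudal axis genes had any event at 11 of 19, with 7 for HOXC10 alone, 6 shared, 2 HOXC13 alone and 1 neither. Sp8 had 5 top events, Lin28b 4, Evx2 3 and Nkx1-2 2.

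**Figure D5:**
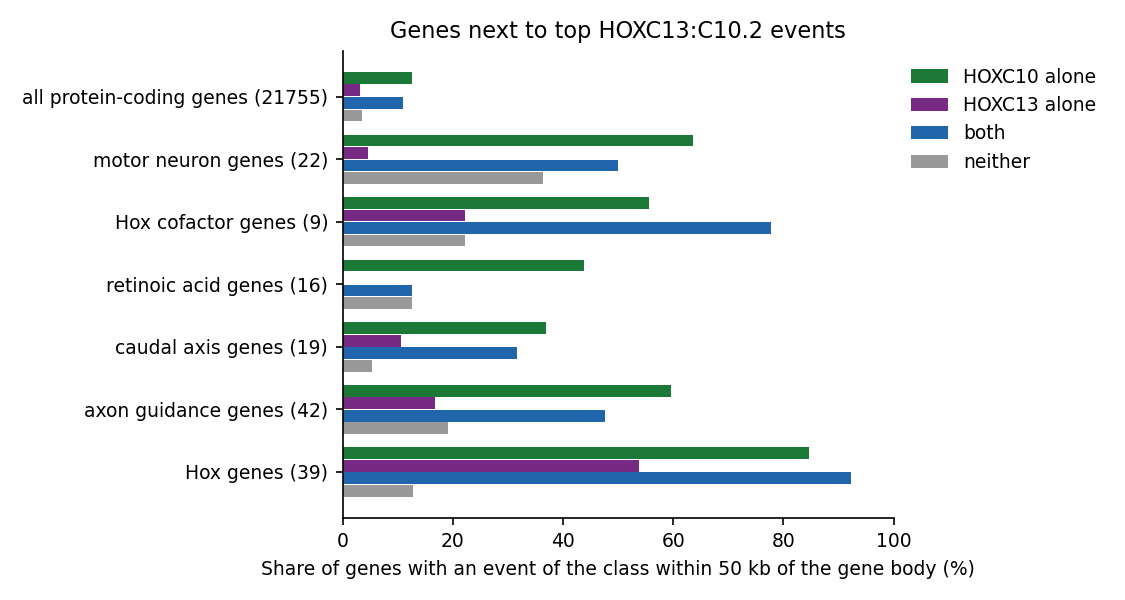
Share (%) of genes with at least 1 top event of each class within 50 kb of the gene body, for all 21755 protein-coding genes and for each list, with the number of genes in parentheses. HOXC13-alone events reach 53.8% of Hox genes, 0 retinoic acid genes and 4.55% of motor neuron genes, against 3.07% of all protein-coding genes. The shares of the 16 retinoic acid and 22 motor neuron genes lie near that of all genes.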

How the data were processed

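ChIP-seq libraries of HOXC13:C10.2, HOXC10 and HOXC13 at day 3 were analysed from the deposited event lists. Per the labels and the study's methods, the authors aligned reads with Bowtie 1.0.1 to mm10, keeping unique best hits, and called events per condition over pooled libraries with MultiGPS against a control library. Picard 2.8.2 is named in the submitters' processing notes. Each deposited event carries estimated counts of its ChIP and control reads, a log2 fold of ChIP against control, and a q-value on a log2 scale that served as a score. The highest q-value in the chimera list was 0.000995. The lists also hold log2 fold changes and q-values from the authors' edgeR 3.22.5 comparisons between conditions, which were not used. Per the file headers, the chimeras were called in a run that also held HOXC10 and HOXC13. The parent lists used here come from another run, with HOXC6, HOXC9, HOXA9 and HOXD9, and the control libraries of the runs held 20.3 and 20.6 M reads. MultiGPS shares position information within a run.

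Events were kept on chromosomes 1 to 19 and X, which left out 91 of 87315 chimera events, and ranked by estimated ChIP reads. Those within 100 bp counted as shared. The rule for naming took 5 genes with most events per class by nearest start, up to 4 genes per list, the 3 strongest events per class, and Hoxc10, Hoxc13, Hoxc9, Foxp1 and Aldh1a2. Hoxc12 and Hoxb13 were named outside it. The members and lists were chosen with earlier results of these data known. Gene positions came from the basic GENCODE M21 annotation. All 81855 sequences deposited with the chimera events were found in the GRCm38 reference within 200 bp of their event, and 0 events lay past a chromosome end. Shares carry Wilson intervals and differences carry Newcombe intervals, at 95%, from scipy 1.17.1 in Python 3.11.15. Both cover counting error only, and nearby sites are not independent: 15.1% of top events had another within 100 bp. Classing, motif search and intervals were tested on simulated data. Alternatives changed the ranking, list lengths, distance limit, motif window and promoter rule, and 2 were added after the data were seen (the weaker 5000 of the top events, and close events left out).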

Additional observations from a re-analysis of the deposited data

How the results depend on the processing

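The class shares depended on list length, rank and distance limit. In the order HOXC10 alone, HOXC13 alone, both and neither, the shares were 41.6, 4.78, 48.8, 4.84% over the top 5000 events, 42.4, 11.3, 30.5, 15.9% over the top 20000, 42.6, 8.43, 32.7, 16.3% within 50 bp, 42.1, 6.48, 46.3, 5.18% within 200 bp, 63.1, 4.35, 21.3, 11.3% with the HOXC13 list cut to the length of the HOXC10 list, 54.9, 5.31, 8.6, 31.2% with the 10000 strongest events of each parent list and 46.6, 9.9, 31.8, 11.7% among the weaker 5000 of the top events. With close events left out the shared class stood at 39.2%. Of 36 class shares under the alternatives 7 stayed within the interval of the reported value, among them all 4 under ranking by q-value.

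Of 104 differences between classes under the alternatives 91 kept their call, and none that was called reversed. The differences in TTTAT, in TTTAC and in MEIS events between HOXC10-alone and HOXC13-alone sites stayed called under every alternative run. The TGATTTAT difference became called over the top 5000 (3.95 points), the top 20000 (1.91), with the cut HOXC13 list (4.08) and with the motif within 100 bp (3.35). The TTTAT difference of neither minus HOXC10-alone sites became called over the top 5000 (7.11), the top 20000 (4.37), within 200 bp (6.11), with the cut HOXC13 list (4.23), with 10000 events of each parent (4.08) and with the motif within 25 bp (4.17). The promoter difference of neither minus HOXC10-alone sites became called with 10000 events of each parent (-0.588), and the HOXC9 difference within 50 bp (5.15). The HOXC13:C10.1 difference was no longer called over the top 5000 (-1.27). The cause of these changes was not tested.

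No paired analysis was possible because every list pools its libraries and holds no value per replicate. Leaving out 1 library at a time could not be run for the same reason. The HOXC10 libraries, with signal fractions of 0.017 to 0.161, limit how firmly a site can be called HOXC13 alone or neither.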
